A study of Mus musculus with 89 samples.

Results

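Lungs of mice without surfactant protein D (SP-D-/-) were compared with lungs of C57BL/6 mice after exposure to forced air alone, which gives the difference between the genotypes at baseline. The arrays were those labelled SP-D-/- and C57BL/6 in air, 11 of the 89 arrays of the series, 5 from SP-D-/- mice (replicates 2 to 6) and 6 from C57BL/6 mice (replicates 1 to 6). All mice were male and 7 to 8 weeks old, breathed air for 2 h and were killed 12 h later. RNA came from the perfused left lobe, so every value is an average over all cells of the lobe. The rest of the series holds BALB/c mice in air, and the 3 strains after ozone at 3 ppm, after the allergen of the mould Aspergillus fumigatus (Af), and after both. The labels give no genetic background for SP-D-/-, no part of the gene that is disrupted, and no statement that the C57BL/6 mice were littermates. They also do not say that arrays are separate animals beyond their numbers, so p-values measure spread between arrays. In the main fit that spread was estimated over all 89 arrays of the series and not over the 11 air arrays alone.

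Surfactant protein D, encoded by Sftpd, is a collectin, a soluble lectin that alveolar type 2 and club cells secrete into the airspace. It binds sugars on microbes and allergens and presents them to phagocytes, and it takes part in keeping the surfactant pool in balance. Mice that lack it are known for enlarged, lipid-filled alveolar macrophages, a build-up of surfactant lipid and a slow widening of the airspaces with age. The gene lists used below cover those themes, the other collectins, the cell types of the lung and the tissues that a dissected lobe can carry with it.

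Signals are log2 values as deposited, and a difference is SP-D-/- minus C57BL/6 on that scale with the standard error (SE) of the fit. A gene was called at an adjusted p under 0.05 in limma, over 15065 tested genes. Lung markers were high in both groups: Sftpc, a surfactant protein of type 2 cells, ran from 12.52 to 12.80 in SP-D-/- and from 12.71 to 12.80 in C57BL/6, and Scgb1a1 of club cells from 12.96 to 13.20 and from 12.96 to 13.54. Arrays correlated across genes at 0.934 to 0.992 within SP-D-/-, 0.907 to 0.988 within C57BL/6 and 0.904 to 0.985 between the groups. The hybridization spikes averaged 10.55 ± 0.88 and 10.62 ± 0.64 (SD, n = 5 and 6, exact permutation p = 0.892, two-sided). The 3′ minus 5′ difference of beta-actin, which grows as RNA is shortened, was 1.88 ± 0.17 in SP-D-/- and 1.59 ± 0.16 in C57BL/6 (exact p = 0.026, 0.039 adjusted over 3 tests). That of Gapdh, a measure added after the data were seen, was 1.75 ± 0.18 and 1.24 ± 0.21 with no overlap (exact p = 0.00433, the smallest that 5 against 6 can give, 0.013 adjusted). A limma fit took the spike, actin and Gapdh measures as covariates and left out 5 doubted arrays of other groups. It called 15 genes, among them the 10 called below. Since the Gapdh measure does not overlap between the groups, that fit cannot tell RNA quality from genotype. The part of RNA quality in the differences was not tested.

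Few genes passed the test at baseline, and how many did depended on the arrays fitted. Of 15065 genes 10 were called (0.0664%), 9 higher (0.0597%) and 1 lower (0.00664%) in SP-D-/-. Sftpd itself fell. Saa3, Ctr9, Loxl2, Fgg, Fga, Retnla, Ly6i, Mfsd2a and Mbl2 rose. At an unadjusted p under 0.05 there were 182 genes (1.21%), 148 higher (0.982%) and 34 lower (0.226%). A fit of the 11 air arrays alone, with its own estimate of the spread, called 28 genes, 19 higher and 9 lower, of which 6 were among the 10, and had 1233 at an unadjusted p under 0.05. Without SP-D-/- replicates 3 and 4, described below, the fit of all arrays called 5 and had 99 at that level. On simulated data 28% of genes changed by 1 log2 unit were recovered, so smaller differences may go uncalled. The simulation held more changed genes than were called here, and the same spread in every group, so that share need not hold for these arrays. For 251 genes (1.67%) the 5 SP-D-/- values and the 6 C57BL/6 values did not overlap, 179 with SP-D-/- higher (1.19%) and 72 with it lower (0.478%). Of all tested genes 55.0% had a difference above 0, and the median was 0.02.

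**Figure D1:**
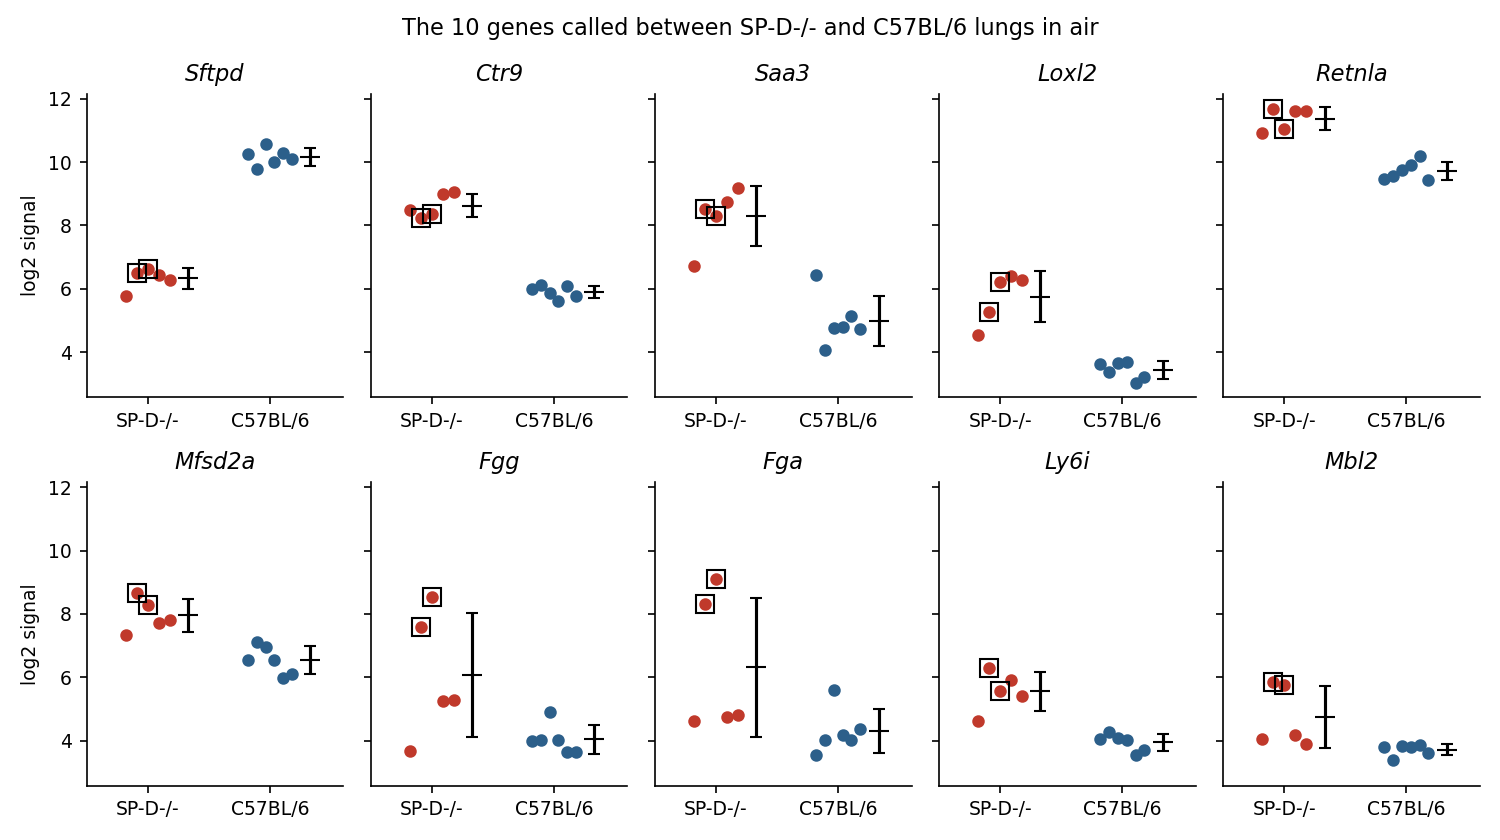
Log2 signal (y axis, the same scale in each panel) of the 10 called genes on each array, SP-D-/- in red on the left and C57BL/6 in blue on the right, with mean and SD beside the points; squares mark SP-D-/- replicates 3 and 4. The groups are apart for 8 genes, while Fgg and Fga overlap and are highest on the squared arrays.

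The targeted gene checks the labels. Sftpd had 5.77, 6.51, 6.63, 6.42 and 6.29 on the SP-D-/- arrays, against a lowest of 9.77, a median of 10.18 and a highest of 10.56 in C57BL/6. Every SP-D-/- array lay far below every C57BL/6 array. The fall was -3.84 ± 0.53 (adjusted p = 1.94e-06, limma), 14.3-fold lower. A single probe set reads this gene, and the residual signal of 6.32 ± 0.34 (SD, n = 5) was above the level of 4.45 used to filter dim genes. Whether the probes lie inside the disrupted part is not given in the labels.

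Among the other lung collectins, Sftpa1 was the nearest in pattern. It encodes surfactant protein A, which shares with SP-D the collagen-like stalk and the lectin head, and it lies 2 tested genes away from Sftpd on chromosome 14. Its values were 11.01, 11.38, 11.22, 11.36 and 11.66 in SP-D-/-, against 12.30, 12.62 and 12.96 (lowest, median, highest) in C57BL/6. No values overlapped, and the difference of -1.26 ± 0.39 did not pass in the fit of all arrays (adjusted p = 0.732). It passed in a fit of the 11 arrays alone (adjusted p = 0.00344), and with the spike covariate and without the 5 doubted arrays (-1.30, adjusted p = 3.58e-05). Its second probe set also kept the groups apart, at 9.58 ± 0.14 in SP-D-/- and 10.28 ± 0.17 in C57BL/6 (SD).

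None of the surfactant and type 2 cell genes was called. Of 12 tested members, Sftpa1 included, 5 were higher and 7 lower, and the median difference was -0.04. In RNA of a whole lobe, more or fewer cells of a type and more or less RNA per cell cannot be told apart. Sftpc differed by -0.08 ± 0.22, Abca3, the lipid pump of lamellar bodies, by 0.26 ± 0.29, and Slc34a2, a phosphate transporter of type 2 cells, by -0.08 ± 0.33. Lpcat1, an enzyme that makes the main surfactant lipid, had -0.07 ± 0.24, and Nkx2-1, the lung epithelial transcription factor, 0.16 ± 0.16. Etv5, a factor of type 2 cell identity, had -0.48 ± 0.41. The 9 tested genes of the GM-CSF axis, by which macrophages clear surfactant, had 0 called and a median of -0.02.

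Mfsd2a, a transporter that takes up lysophosphatidylcholine and is found in type 2 cells, rose. It had 7.32, 8.66, 8.27, 7.72 and 7.81 in SP-D-/-, against 5.98, 6.55 and 7.12 in C57BL/6 (lowest, median, highest). No SP-D-/- value fell into the C57BL/6 range. The difference was 1.42 ± 0.27 (adjusted p = 0.00488, limma), 2.67-fold higher. It did not pass without replicate 3 (1.24, adjusted p = 0.13) or after cyclic loess (1.37, adjusted p = 0.0953). In the fit of the 11 arrays the adjusted p was 0.0523, and with a replicate block there 0.218; without replicates 3 and 4 the difference was 1.08 (adjusted p = 1).

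Mbl2, mannose-binding lectin C, a collectin made mainly by the liver, rose by 1.03 ± 0.22 (adjusted p = 0.0283). It was the one member called of 21 tested collectin and pattern recognition genes, whose median was 0.09. Its values were 4.05, 5.85, 5.76, 4.17 and 3.89 in SP-D-/-, against 3.38, 3.80 and 3.86 in C57BL/6. Replicates 3 and 4 stood above the other arrays, and the same arrays were high for the liver genes described below. Without them the difference was 0.32 (adjusted p = 1). Mbl2 did not pass in the fit of the 11 arrays either (adjusted p = 0.423, limma).

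Ctr9, a subunit of the PAF1 complex that accompanies RNA polymerase II, had the smallest p of all genes. One of its probe sets, of the s_at kind, gave 8.49, 8.24, 8.37, 8.98 and 9.07 in SP-D-/-, against 5.61, 5.93 and 6.11 in C57BL/6. The groups lay over 2 log2 units apart with little spread in either. The rise was 2.72 ± 0.27 (adjusted p = 9.8e-12, limma), 6.60-fold. The other 3 probe sets of Ctr9 did not share it: they averaged 5.41, 4.82 and 4.61 in SP-D-/-, against 5.33, 4.79 and 4.75 in C57BL/6, each with overlapping groups. Averaged over its probe sets, Ctr9 differed by 0.67 (adjusted p = 0.0247). An s_at probe set may read more than 1 transcript, so the level is that of this probe set and not of the gene as a whole.

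Saa3, a serum amyloid A made by macrophages and epithelium in inflamed tissue, had the largest rise of the called genes. It had 6.71, 8.51, 8.30, 8.74 and 9.19 in SP-D-/-, against 4.05, 4.77 and 6.43 in C57BL/6. The lowest SP-D-/- array, replicate 2, lay just above the highest C57BL/6 array, replicate 1. The difference was 3.31 ± 0.52 (adjusted p = 7.67e-05, limma), 9.93-fold higher, and without replicates 3 and 4 it was 3.23 (adjusted p = 0.00771).

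Other acute-phase genes lay the same way with less precision. Of 10 tested members of the acute-phase and metallothionein list 1 was called, 9 were higher and 1 lower, and the median was 0.70. Saa1 had 3.58 ± 0.47 in SP-D-/- and 2.67 ± 0.20 in C57BL/6, and Saa2 4.97 ± 0.98 and 3.49 ± 0.28, both with the groups apart and both at an adjusted p of 1. These paralogs are near-identical, so their probe sets may share signal, and the second probe set of Saa2 overlapped between the groups (4.31 ± 0.24 and 3.94 ± 0.35). Lcn2, an iron-trapping defence protein of epithelium and neutrophils, had 10.29 ± 0.62 and 9.20 ± 0.34 (difference 1.1 ± 0.61), and Hpx, a haem carrier of plasma, 4.69 ± 1.14 and 3.36 ± 0.38 (1.33 ± 0.36, adjusted p = 0.307). Hpx was 5.77 and 5.97 on SP-D-/- replicates 3 and 4, the arrays with high liver genes described below, and 3.37 to 4.41 on the others, and without those 2 arrays it differed by 0.54. Cfb, complement factor B, had 0.76 ± 0.30, the smallest p of 12 complement genes of which 0 were called.

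Retnla, a cysteine-rich protein secreted by alternatively activated macrophages and airway epithelium, rose. Its values were 10.91, 11.68, 11.06, 11.61 and 11.61 in SP-D-/-, against 9.44, 9.66 and 10.19 in C57BL/6. All SP-D-/- arrays were above all C57BL/6 arrays. The difference was 1.65 ± 0.29 (adjusted p = 0.000944, limma), 3.14-fold, and it was the same size without replicates 3 and 4 (1.65, adjusted p = 0.027). Of the 12 tested genes of alternatively activated macrophages Retnla alone was called. Another 9 were higher and 2 lower, and the list median was 0.16. Ccl22, a chemokine for type 2 helper and regulatory T cells, had 6.45 ± 0.44 and 5.53 ± 0.19 with the groups apart (difference 0.93 ± 0.47, adjusted p = 1).

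Saa3 and Retnla are known targets of C/EBP factors, and Retnla also of STAT6, which interleukins 4 and 13 activate. Their promoters are shown because their rises were among the firmest. Below are the 250 bases before the start of each gene, from RefSeq (GRCm38.p6), 5′ to 3′ on the strand of the gene. Capitals mark matches on either strand to TTGCNNAA for C/EBP or, for STAT6, to TTC and GAA with 4 bases between them. Both genes matched the promoter table, which held no promoter for Ctr9 or Loxl2, whose rises were also firm.
Saa3, chr7:46715677-46715926, minus strand: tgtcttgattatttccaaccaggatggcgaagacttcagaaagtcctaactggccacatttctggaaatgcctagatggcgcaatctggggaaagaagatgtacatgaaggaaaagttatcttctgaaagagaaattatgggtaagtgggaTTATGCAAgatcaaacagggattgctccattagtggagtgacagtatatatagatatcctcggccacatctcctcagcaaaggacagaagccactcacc
Retnla, chr16:48842359-48842608, plus strand: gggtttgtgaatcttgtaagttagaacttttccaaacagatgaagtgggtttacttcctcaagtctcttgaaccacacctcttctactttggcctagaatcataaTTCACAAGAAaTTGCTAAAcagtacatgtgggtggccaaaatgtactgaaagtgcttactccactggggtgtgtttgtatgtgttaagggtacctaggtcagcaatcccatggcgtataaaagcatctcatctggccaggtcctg
Each window held 1 match to the C/EBP motif, TTATGCAA beginning 99 bases before the start of Saa3 and TTGCTAAA beginning 134 bases before that of Retnla. Such a match was found in 9.6% of 32851 windows of the same length. Retnla also held 1 STAT6 match, TTCACAAGAA, beginning 145 bases before the start and next to the C/EBP match without overlapping it, as did 5.9% of the windows. The STAT motif TTCNNNGAA, found in 7.0% of windows, matched neither. These are descriptions of the letters and not measurements of binding.

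Loxl2, a lysyl oxidase that crosslinks collagen and elastin, rose. It had 4.54, 5.28, 6.22, 6.40 and 6.29 in SP-D-/-, against 3.01, 3.50 and 3.70 in C57BL/6, where every array was below the level of 4.45 used to filter dim genes. Replicate 2 was the lowest in SP-D-/- and still above all C57BL/6 arrays. The difference was 2.32 ± 0.41 (adjusted p = 0.000944, limma), measured against a C57BL/6 level too dim to give a firm fold. Loxl2 lies on chromosome 14, as Sftpd does, 219 tested genes away.

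The other matrix genes did not follow it. Of 17 tested genes of elastic fibres and collagens 1 was called, and the list median was 0.13. Of 15 tested matrix metalloproteinases and inhibitors 0 were called, 9 were higher and 6 lower, with a median of 0.18. Mmp12, macrophage elastase, had 3.09, 7.55, 6.21, 6.25 and 6.47 in SP-D-/-, against 3.34, 4.22 and 4.72 in C57BL/6. Replicate 2 was the lowest of all 11 arrays while the other SP-D-/- arrays were the 4 highest, and the difference of 1.79 ± 0.82 did not pass (adjusted p = 1). Timp1, an inhibitor of these enzymes, had 6.81 ± 0.98 in SP-D-/- and 5.79 ± 0.45 in C57BL/6 (difference 1.02 ± 0.60, adjusted p = 1), again with replicate 2 the lowest in SP-D-/- at 5.14. Mmp9 had -0.68 ± 0.41 and Mmp2 0.37 ± 0.61.

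Genes of lipid-laden macrophages and lysosomes were nearly balanced. Of 18 tested members 0 were called, 11 were higher and 7 lower, and the median was 0.12. Gpnmb, a glycoprotein of lipid-loaded macrophages, was apart, with 6.49, 8.08, 7.11, 6.91 and 6.94 in SP-D-/-, against 5.83, 6.01 and 6.29 in C57BL/6 (difference 1.09 ± 0.45, adjusted p = 1). Lgals3, galectin-3, a lectin of macrophages, was apart as well, at 9.57 ± 0.22 and 8.98 ± 0.12, and it too lies on chromosome 14. Plin2, a lipid droplet coat protein, had 0.46 ± 0.32, Cd36, a fatty acid scavenger receptor, -0.24 ± 0.34, and Abcg1, a cholesterol exporter, -0.02 ± 0.39. Ctsd, a lysosomal protease, had 0.45 ± 0.23.

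Ctsk, cathepsin K, had the smallest p among 13 tested alveolar macrophage genes. Its values were 5.92, 6.58, 6.51, 6.43 and 6.48 in SP-D-/-, against 4.65, 5.22 and 5.61 in C57BL/6. The groups were apart with a difference of 1.19 ± 0.40 (adjusted p = 0.988), which passed in the fit of the 11 arrays alone (adjusted p = 0.011). The list as a whole had 0 called, 7 higher and 6 lower.

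Ly6i, a GPI-anchored surface protein of the Ly6 family found on myeloid cells, rose by 1.62 ± 0.35 (adjusted p = 0.0299, limma). It had 4.62, 6.29, 5.55, 5.91 and 5.41 in SP-D-/-, against 3.53, 4.03 and 4.27 in C57BL/6. All SP-D-/- arrays were above all C57BL/6 arrays, and all C57BL/6 arrays were below 4.45. Ly6i was called in 4 of the 11 fits that leave out 1 array. The difference was 1.43 without SP-D-/- replicate 3 (adjusted p = 0.359), 1.62 without replicate 4 (0.121) and 1.53 without replicate 5 (0.065). It was 1.54 to 1.64 without C57BL/6 replicate 1, 4, 5 or 6 (adjusted p = 0.0574 to 0.119), and it did not pass after cyclic loess (1.59, adjusted p = 0.0622). Ly6 genes are a family of close paralogs, and their signals may be shared.

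Fga and Fgg, which encode the alpha and gamma chains of fibrinogen and are expressed chiefly by hepatocytes, rose in the test, with 2 arrays far above the others. Fgg had 3.68, 7.59, 8.53, 5.26 and 5.27 in SP-D-/-, against 3.63, 3.99 and 4.91 in C57BL/6 (difference 2.03 ± 0.40, adjusted p = 0.00604, limma). Fga had 4.63, 8.30, 9.10, 4.73 and 4.81, against 3.53, 4.11 and 5.6 (2.03 ± 0.45, adjusted p = 0.0299). Replicates 3 and 4 were high for both, and the groups overlapped. Neither passed in the fit of the 11 arrays (adjusted p = 0.423 for Fgg and 0.498 for Fga, limma).

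The same 2 arrays carried the whole list of liver plasma proteins. All 13 tested members were higher, with a median of 2.03, 2 were called and 12 had an unadjusted p under 0.05 (1.21% of all genes did). Alb, albumin, had 10.44 and 10.37 on SP-D-/- replicates 3 and 4 but 4.58 to 4.95 on replicates 2, 5 and 6, against 4.24, 4.55 and 6.38 in C57BL/6. Apoa2, an apolipoprotein of HDL, had 10.27 and 10.78 on those 2 arrays and 4.96 to 5.54 on the other SP-D-/- arrays, against 4.91 to 6.84 in C57BL/6. The highest C57BL/6 array was replicate 3 for both. The mean of the list was 8.81 and 9.42 on SP-D-/- replicates 3 and 4, 4.58 to 4.72 on the other SP-D-/- arrays, and 4.38 to 5.86 in C57BL/6. Without the 2 arrays the list median was -0.09, and 5 genes were called in place of 10, namely Sftpd, Ctr9, Saa3, Loxl2 and Retnla. Fga then differed by 0.44 and Fgg by 0.71 (both adjusted p = 1).

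**Figure D2:**
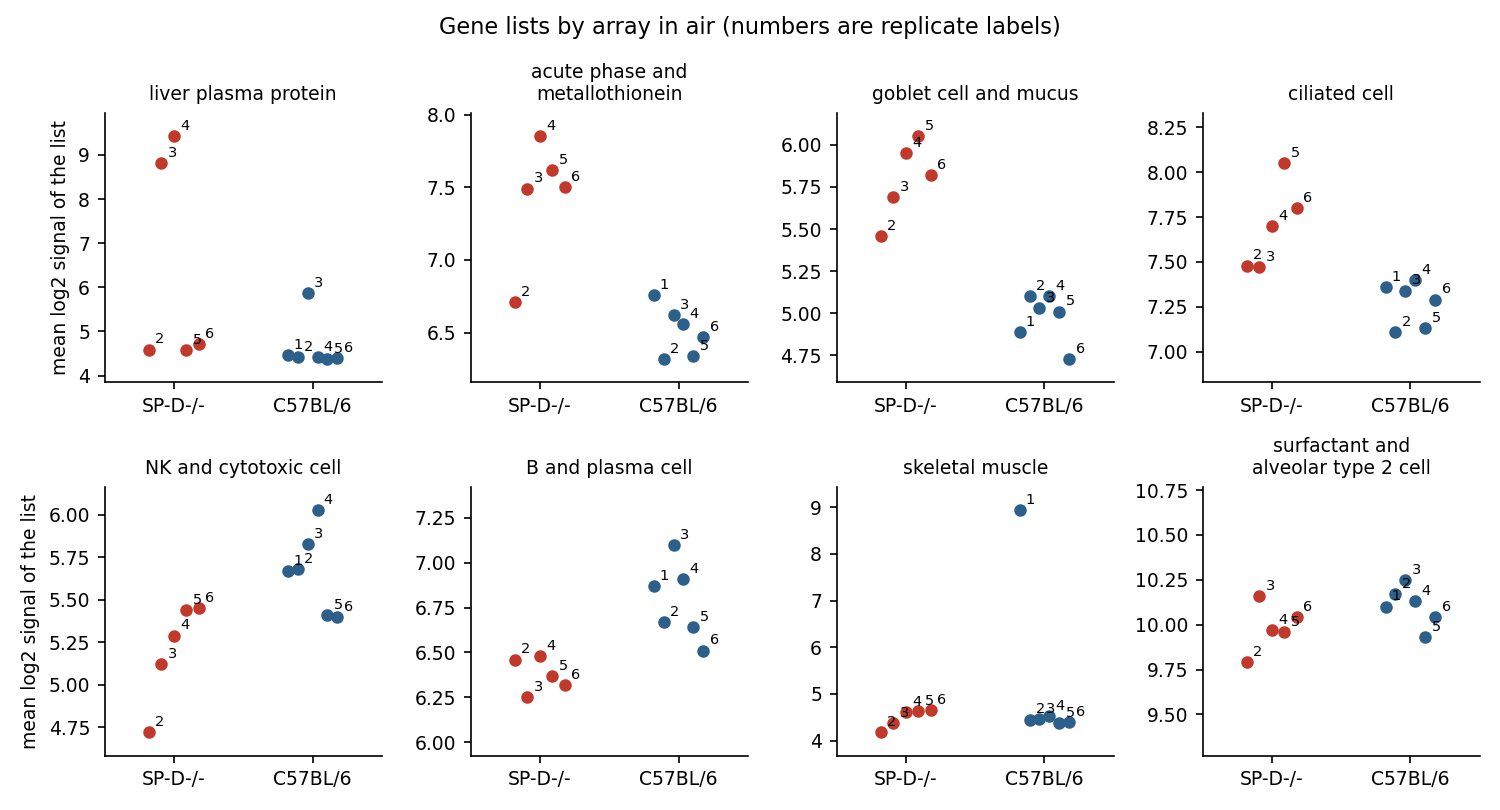
Mean log2 signal (y axis, own scale per panel) of the tested genes of 8 lists on each array, SP-D-/- in red on the left and C57BL/6 in blue on the right, numbered by replicate. Liver plasma proteins are high on SP-D-/- replicates 3 and 4 and skeletal muscle on C57BL/6 replicate 1, while the goblet cell list is apart between the groups.

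Airway epithelial genes were higher in SP-D-/- without passing the test. All 10 tested goblet cell and mucus genes were higher, as were 55.0% of all tested genes. The list median was 0.67 against 0.02 over all genes, and 0 were called. An unadjusted p under 0.05 was reached by 2, against 0.982% of all genes on the higher side. The groups were apart for 4, against 1.19% of all genes on that side. The mean of the list ran from 5.46 to 6.05 in SP-D-/- and from 4.73 to 5.10 in C57BL/6.

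Slc26a4, pendrin, an anion exchanger that goblet cells induce, had 6.63, 6.80, 6.60, 6.86 and 6.64 in SP-D-/-, against 4.88, 5.0 and 5.31 in C57BL/6. The groups were tight and apart. The difference was 1.68 ± 0.57, and it did not pass in the fit of all arrays (adjusted p = 1) but did in the fit of the 11 arrays (adjusted p = 5.6e-06). Clca1, a secreted regulator of mucus, had 6.21, 7.36, 8.21, 8.24 and 7.70 in SP-D-/-, against 3.81, 5.71 and 5.78 in C57BL/6 (difference 2.34 ± 0.87, adjusted p = 1). Its second, dim probe set did not separate the groups (3.99 ± 0.16 and 3.90 ± 0.27), and the mean of both gave Clca1 a difference of 1.21. With the spike, actin and Gapdh measures as covariates and without the 5 doubted arrays, Slc26a4 differed by 1.17 and Clca1 by 2.47. Muc5b, the main airway mucin at rest, had 8.61 ± 0.16 and 7.61 ± 0.25 with no overlap (1.00 ± 0.51, adjusted p = 1), and Pigr, the epithelial receptor that carries IgA into the airway, had 7.80 ± 0.50 and 6.45 ± 0.25 with no overlap (1.36 ± 0.43, adjusted p = 0.753). Both passed in the fit of the 11 arrays (adjusted p = 0.00788 and 0.0175). The second probe set of Pigr was higher too, but there the groups overlapped (7.58 ± 0.32 and 6.59 ± 0.27).

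All 10 tested ciliated cell genes were higher too, by 0.26 to 0.67 with a median of 0.38, and 0 were called. Rsph1, a radial spoke protein of cilia, had 7.61 ± 0.29 in SP-D-/- and 7.13 ± 0.09 in C57BL/6 with the groups apart, and Foxj1, the master regulator of motile cilia, 6.35 ± 0.47 and 5.67 ± 0.41. Of 14 club and secretory cell genes 12 were higher with a median of 0.13, and Scgb3a1, a secretoglobin of large airways, had 0.64 ± 0.59. The 11 alveolar type 1 genes had a median of 0.04.

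Lymphocyte genes were lower on balance, with 0 called. The 11 tested NK and cytotoxic genes had 2 higher and 9 lower and a median of -0.49. The list averaged 5.20 ± 0.30 in SP-D-/- and 5.67 ± 0.24 in C57BL/6, and without SP-D-/- replicate 2, the lowest array, its median was -0.28. Gzma, granzyme A, a protease of killer cells, had 4.96, 6.17, 6.70, 6.89 and 7.16 in SP-D-/-, against 7.39, 7.88 and 8.16 in C57BL/6. No values overlapped, with a difference of -1.46 ± 0.79 (adjusted p = 1). Gzmb had -0.65 ± 0.27 and Nkg7, a granule protein, -0.59 ± 0.29, both with overlap.

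B and plasma cell genes had 2 higher and 8 lower of 10 tested, with a median of -0.50. Cd79a, a chain of the B cell receptor, had 6.44, 6.51, 6.81, 6.72 and 6.66 in SP-D-/-, against 6.90, 7.38 and 7.64 in C57BL/6 (difference -0.69 ± 0.28, adjusted p = 1). Spib, a transcription factor of B cells, was apart at 6.23 ± 0.20 and 7.13 ± 0.35, and Cr2, complement receptor 2 of B and follicular dendritic cells, at 5.08 ± 0.17 and 5.79 ± 0.26. T cell genes had a median of -0.03 over 11 tested, and all 13 tested interferon-stimulated genes were slightly lower with a median of -0.13.

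Granulocyte markers gave no call. Neutrophil genes had a median of -0.23 over 12 tested. S100a8 had 7.11 ± 0.92 in SP-D-/- and 7.86 ± 0.69 in C57BL/6, while Lrg1, also an acute-phase glycoprotein, had 7.40 ± 0.61 and 6.21 ± 0.45 (difference 1.19 ± 0.46, adjusted p = 1). The eosinophil peroxidase Epx was below the filter level on all 11 arrays, at 3.52 to 4.0 in SP-D-/- and 3.84 to 4.25 in C57BL/6. Hdc, the enzyme that makes histamine, was apart at 9.16 ± 0.29 and 8.16 ± 0.21 (1.00 ± 0.39, adjusted p = 1). On its second probe set the groups overlapped, at 6.97 ± 0.59 in SP-D-/- and 6.44 ± 0.13 in C57BL/6. The mast cell protease Cpa3 was below the filter level on all arrays, at 3.14 to 3.60 and 3.17 to 3.55.

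Genes that respond quickly to handling or injury were higher for some members. Fos, an early-response transcription factor, had 10.91, 9.0, 9.16, 9.48 and 10.15 in SP-D-/-, against 7.13, 8.95 and 9.29 in C57BL/6, with overlap (1.07 ± 0.39, adjusted p = 1). Of 13 tested immediate early genes 9 were higher with a median of 0.33, and 0 were called. Glucocorticoid-responsive, clock, antioxidant and heat shock genes had medians of 0.08, 0.00, 0.08 and 0.17, with 0 called in each.

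Genes typical of tissues other than lung were high on some arrays, and whether such tissue was present was not tested. The 12 skeletal muscle genes were all lower, with a median of -0.75, and their mean was 8.94 on C57BL/6 replicate 1, 4.37 to 4.53 on the other C57BL/6 arrays and 4.18 to 4.66 in SP-D-/-. Without that array the median was 0.02. Haemoglobin genes ran from 6.73 to 8.07 in SP-D-/- and from 6.70 to 9.25 in C57BL/6. In all, 5 of the 43 lists held a called gene and 38 held none. The liver, muscle and blood levels of the arrays move with the genes named beside them, and their part in any other difference was not tested.

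**Figure D3:**
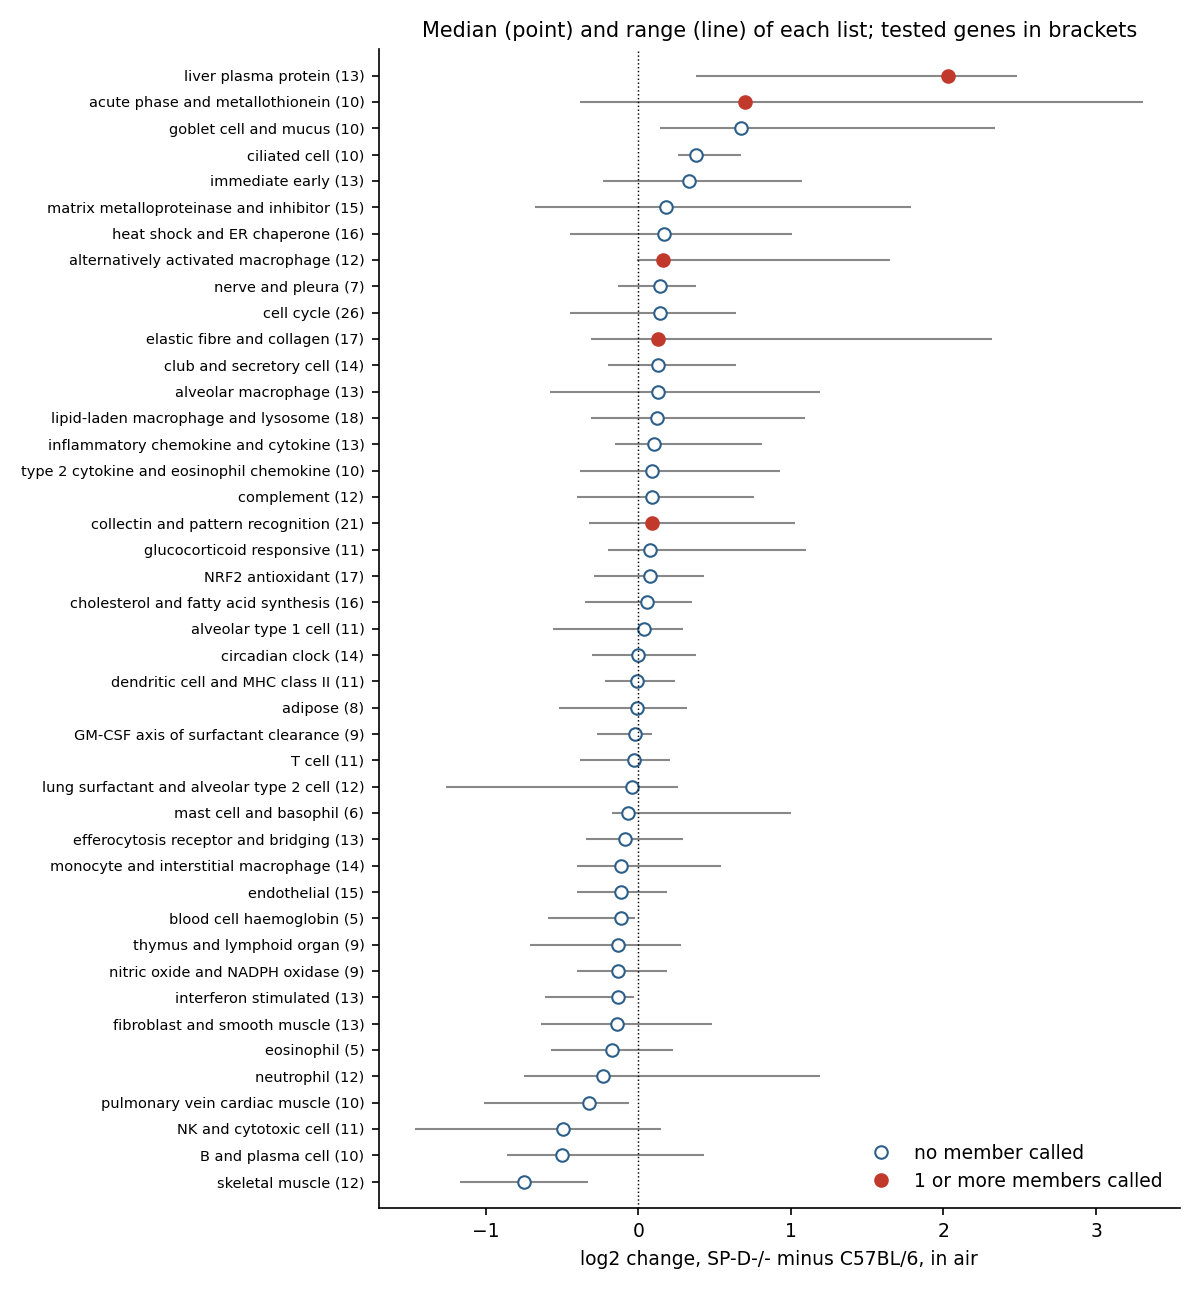
Log2 change in air, SP-D-/- minus C57BL/6 (x axis), for 43 gene lists: the point is the median of the tested genes and the line runs from the lowest to the highest; filled red points mark lists with a called gene. Liver plasma proteins have the highest median, 2.03, and skeletal muscle the lowest, -0.75, the first resting on SP-D-/- replicates 3 and 4 and the second on C57BL/6 replicate 1.

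Differences were more frequent on chromosome 14, which carries Sftpd, than on any other. Of 511 tested genes there 22 had an unadjusted p under 0.05 (4.31%), against 160 of 14554 elsewhere (1.1%) and 0.556% to 1.93% on the 19 other chromosomes. Without Sftpd there were 21, of which 12 were higher and 9 lower and 12 kept the groups apart. They lay between 94 tested genes before Sftpd and 236 after it. Genes picked by a small p tend to keep the groups apart, so the 12 are not a separate result. Of all 511 tested genes of the chromosome, whatever their p, 21 kept the groups apart (4.11%), against 1.67% of all tested genes. Of the 50 nearest tested genes, 25 on each side, 0 were called and 4 had an unadjusted p under 0.05 (8.0%), and their median difference was 0.00 (-1.61 to 1.25).

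Those 4 were Sftpa1, Dydc2, Ang5 and Lgals3. Ang5, an angiogenin-family ribonuclease 3 tested genes from Sftpd, had 5.1, 4.63, 5.4, 5.02 and 4.78 in SP-D-/-, against 3.31, 3.72 and 4.22 in C57BL/6. Every SP-D-/- array was above every C57BL/6 array, with a difference of 1.25 ± 0.32 (adjusted p = 0.167, and 0.011 in the fit of the 11 arrays). The collectin gene Mbl1, between Sftpa1 and Sftpd, had 4.40 and 4.28 on average and did not differ beyond the spread (0.11 ± 0.33).

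Others lay farther out. Loxl2 neighboured Entpd4, a nucleotide phosphatase, with 6.14 ± 0.06 in SP-D-/- and 6.76 ± 0.17 in C57BL/6, and Slc25a37, the mitochondrial iron importer, with 8.10 ± 0.17 and 8.62 ± 0.16. These stand 219, 218 and 217 tested genes from Sftpd, and each kept the groups apart, Loxl2 higher and the other 2 lower. For Slc25a37 and Entpd4 this rests on the probe set used. The other 2 probe sets of Slc25a37 overlapped, at 7.22 ± 0.36 and 5.75 ± 0.44 in SP-D-/- against 6.99 ± 0.23 and 5.77 ± 0.35 in C57BL/6. The second, dim probe set of Entpd4 overlapped too (4.07 ± 0.35 and 4.29 ± 0.26). Adamdec1, a protease of macrophages, 213 genes away, had 6.77 ± 0.29 and 5.47 ± 0.44 with the groups apart. Ajuba, a scaffold protein of cell junctions, 75 genes away, had 7.82 ± 0.05 and 6.88 ± 0.29. Adcy4, an adenylyl cyclase, 120 genes away, had 7.15 ± 0.18 and 8.05 ± 0.23, both apart. None of these but Loxl2 was called (adjusted p = 0.591 to 1). Ajuba (adjusted p = 0.0147), Adcy4 (0.0156), Adamdec1 (0.0249) and Entpd4 (0.0404) passed in the fit of the 11 arrays.

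**Figure D4:**
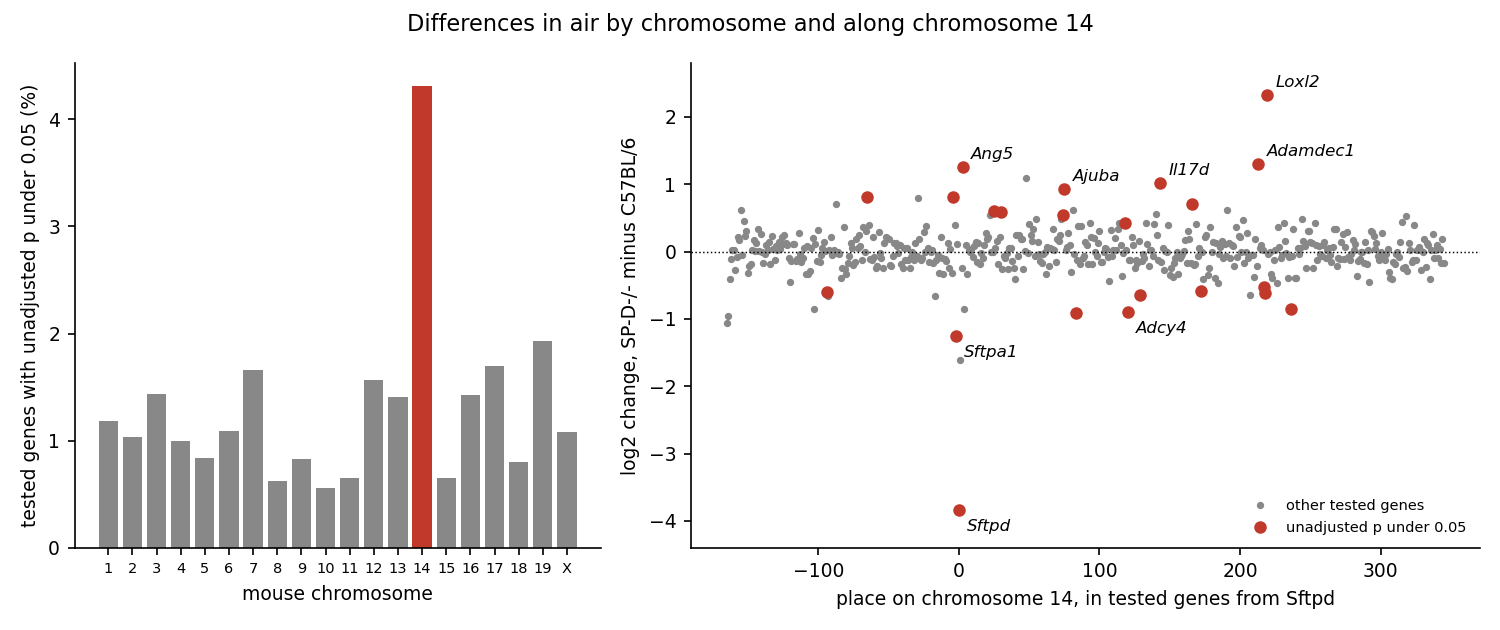
Left, share of tested genes with an unadjusted p under 0.05 (%, y axis) per mouse chromosome, with chromosome 14 in red at 4.31%. Right, log2 change in air, SP-D-/- minus C57BL/6 (y axis), of the 511 tested genes of chromosome 14 by their place in tested genes from Sftpd (x axis), with those at an unadjusted p under 0.05 in red along most of the chromosome.

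Outside chromosome 14, Nnt stood nearest to the threshold. It encodes the mitochondrial transhydrogenase that makes NADPH, and a deletion in it is known from the C57BL/6J substrain. Its values were 10.76, 10.44, 10.64, 10.19 and 10.34 in SP-D-/-, against 9.05, 9.44 and 9.66 in C57BL/6. The groups were apart with a difference of 1.06 ± 0.25 (adjusted p = 0.0814). BALB/c lungs in air had 10.68 ± 0.37 (SD, n = 5). Zfp932, a zinc finger gene, was lower, at 6.20 ± 0.22 in SP-D-/- and 7.41 ± 0.25 in C57BL/6 (-1.21 ± 0.40, adjusted p = 0.94), with 6.40 ± 0.32 in BALB/c.

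The same genotypes were also compared under 5 other exposures, on other arrays, which enter the air comparison only through the shared estimate of the spread. In the series 5 arrays did not match their labels by Sftpd or by strain genes, and none of the 5 was an air array. They were replicate 1 labelled SP-D-/- and replicate 1 labelled C57BL/6 at Af 96 h with ozone, and 3 labelled BALB/c. Genes called between SP-D-/- and C57BL/6 numbered 120 after ozone (0.797%), 13 at Af 24 h (0.0863%), 2435 at Af 96 h with ozone (16.2%), 3 at Af 168 h (0.0199%) and 76 at Af 168 h with ozone (0.504%). Without the 5 arrays they numbered 234 after ozone (1.55%), 19 at Af 24 h (0.126%), 3277 at Af 96 h with ozone (21.8%), 3 at Af 168 h (0.0199%) and 161 at Af 168 h with ozone (1.07%).

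Sftpd and Ctr9 were called in the same direction in all 5. Sftpd differed by -2.9 to -4.64 there (-3.44 to -4.64 without the 5 arrays), and Ctr9 by 1.44 to 2.85. Loxl2 was higher in all 5, by 0.38 to 2.13, and was called at Af 96 h with ozone (2.13 ± 0.41, adjusted p = 0.00106). The other 7 air genes were called in none, except Mfsd2a in 1 when the 5 arrays were left out. Saa3 differed by 1.71 after ozone and by 0.41 at Af 24 h. At Af 168 h it differed by -0.13, and under Af with ozone by 0.56 (96 h) and 1.62 (168 h). Its SP-D-/- mean, 8.29 in air, was 8.99 to 9.81 in those groups, and its C57BL/6 mean, 4.98 in air, was 7.96 to 9.4.

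Retnla had differences of -0.08 to 0.59 at means of 11.87 to 13.1 in SP-D-/- and 11.44 to 12.75 in C57BL/6. Mfsd2a had -0.04 to 0.82, Ly6i -0.68 to 0.77, Fga -0.35 to 0.09, Fgg -0.53 to 0.08 and Mbl2 -0.17 to 0.22. The difference between the air contrast and that of each exposure was tested in the same fit. It was called for 0 of the 10 genes (limma). Over all genes, 1157 (7.68%) had an unadjusted p under 0.05 for the difference from ozone, 564 (3.74%) from Af 24 h, 2064 (13.7%) from Af 96 h with ozone, 308 (2.04%) from Af 168 h and 1170 (7.77%) from Af 168 h with ozone, and 1 was called, against Af 168 h (0.00664%). For Saa3 the largest was 3.44 ± 0.78 against Af 168 h (adjusted p = 0.158), and for Retnla 1.73 ± 0.43 against Af 168 h with ozone (adjusted p = 0.195).

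**Figure D5:**
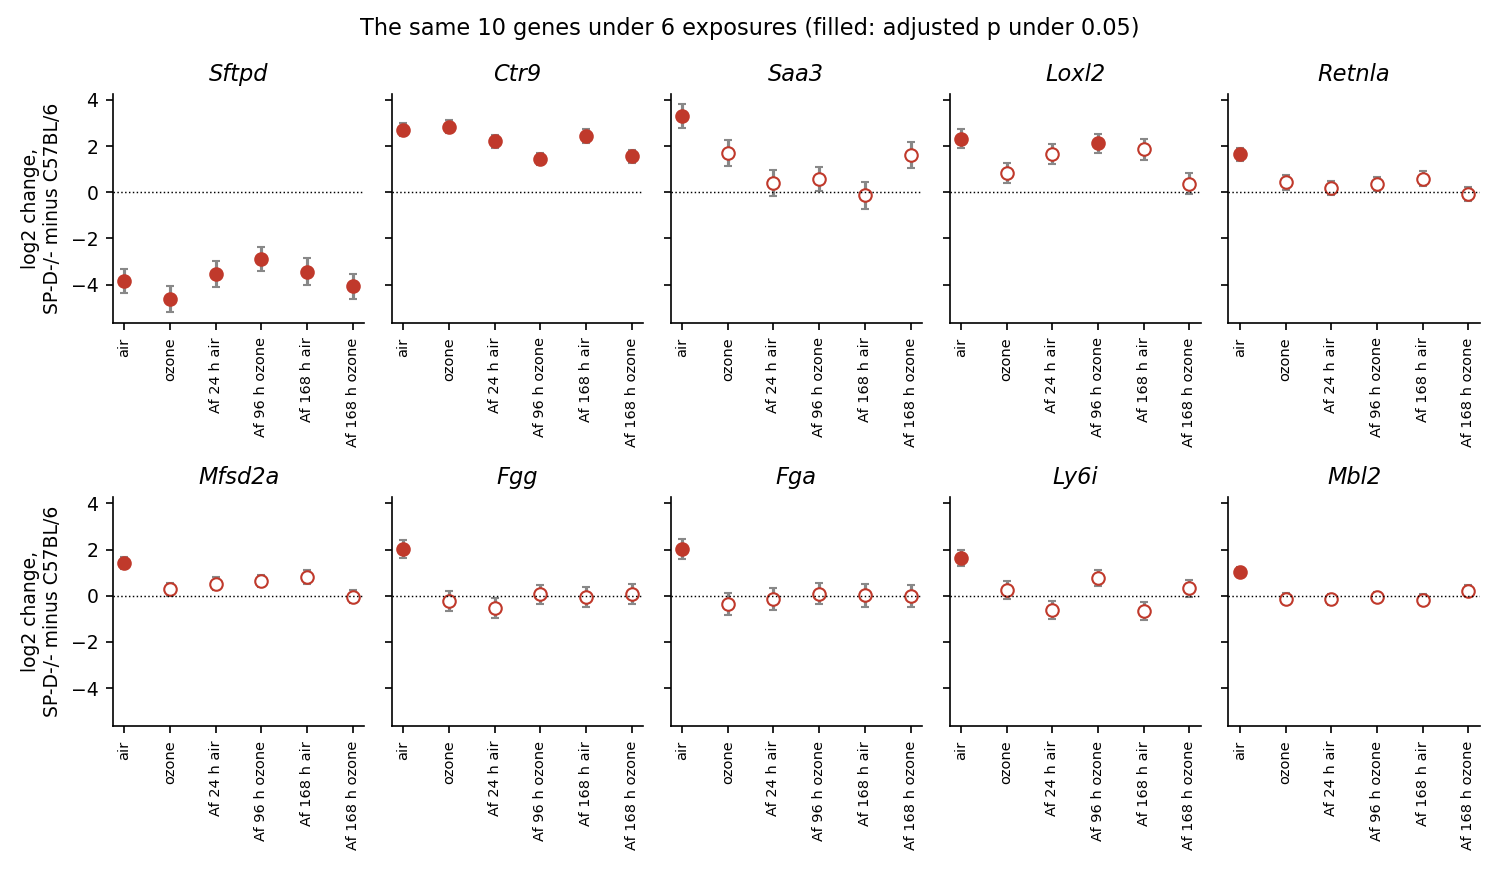
Log2 change, SP-D-/- minus C57BL/6 (y axis, mean ± SE of the fit), of the 10 genes called in air under the 6 exposures from air to Af 168 h with ozone (x axis); filled points passed at an adjusted p under 0.05. Sftpd and Ctr9 are filled under all 6 and Loxl2 in air and at Af 96 h with ozone, and the other 7 genes in air.

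Of the 21 chromosome 14 genes with an unadjusted p under 0.05 in air (without Sftpd) 9 had the same sign in all 5 other exposures (42.9%). Of the 160 such genes on other chromosomes 7 did (4.38%). Those 160 include liver genes that were high in air on SP-D-/- replicates 3 and 4. Without these 2 arrays 99 genes of all chromosomes, in place of 182, had such a p. How far the liver genes lower the share of 4.38% was not tested. The signs were taken over all arrays, the doubted ones at Af 96 h with ozone included. Ang5 differed by 1.05 to 1.52 and was called in 3 of the 5, and Sftpa1 by -0.24 to -2.28 and was called in 2. On the probe sets used, Slc25a37 had -0.35 to -0.75, Entpd4 -0.11 to -0.77 and Anxa11, an annexin, -0.41 to -1.33. Nnt, on chromosome 13, was higher by 0.35 to 1.89 and was called in 3 of the 5.

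BALB/c lungs in air share no gene disruption with SP-D-/- and give a second wild type. Their values are set beside the others without a comparison of lists, since the contrasts share arrays. The contrast with BALB/c uses the same 5 SP-D-/- arrays, so a gene that passes there has no separate support for its difference from C57BL/6. Sftpd was 10.09 ± 0.38 in BALB/c (SD, n = 5), Ctr9 6.21 ± 0.18, Loxl2 3.42 ± 0.25 and Ly6i 3.62 ± 0.17, each on the side of C57BL/6. Against BALB/c, SP-D-/- differed by -3.76 ± 0.55 in Sftpd, 2.42 ± 0.28 in Ctr9, 2.33 ± 0.43 in Loxl2 and 2.23 ± 0.55 in Saa3, all passing (adjusted p = 2.43e-06, 1.6e-09, 0.000378 and 0.0242, limma). Of 15065 genes 103 were called between SP-D-/- and BALB/c (0.684%), and 77 between BALB/c and C57BL/6 (0.511%).

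The wild types differed from each other in 2 of the rises. Retnla had 8.21 ± 0.63 in BALB/c, and was lower there than in C57BL/6 by -1.51 ± 0.29 (adjusted p = 0.00104). Mfsd2a had 5.6 ± 0.28 in BALB/c (-0.94 ± 0.27 against C57BL/6, adjusted p = 0.136). Against BALB/c, SP-D-/- differed by 3.16 ± 0.31 in Retnla and by 2.36 ± 0.29 in Mfsd2a (adjusted p = 3.65e-12 and 9.43e-09). Slc26a4 had 4.41 ± 0.06 and Clca1 3.77 ± 0.56 in BALB/c. On the same SP-D-/- arrays, for which they were named, both passed against BALB/c (2.30 ± 0.59 and 3.77 ± 0.91, adjusted p = 0.038 and 0.0217, limma). Ajuba ran the other way, with 7.85 ± 0.16 in BALB/c, close to the 7.82 ± 0.05 of SP-D-/- (difference -0.03 ± 0.31).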

How the data were processed

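Expression was measured on Affymetrix HT Mouse430PM arrays after NuGEN amplification, per the labels' protocols. The deposited values are on a log2 scale (1.86 to 13.54, the same median of 4.9 on every array); which software normalized them is not given in the sources used here. Precision is limited by the number of arrays.

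Of 45141 probe sets, 28898 had 1 gene symbol, 551 several, 15588 none and 104 were controls. The probe set with the highest mean stood for each of 17097 genes, and 15065 genes above 4.45 (the 40th percentile) on at least 4 arrays were tested. limma 3.58.1 in R 4.3.3 fitted 18 group means over 89 arrays (71 residual degrees of freedom) with Benjamini-Hochberg adjustment, and a gene was called at an adjusted p under 0.05. limma gave every adjusted p in the text other than those of the quality measures, which come from exact permutation tests in scipy 1.17.1. Tables and figures were made with Python 3.11.15, numpy 2.4.6, pandas 2.3.3 and matplotlib 3.10.9. On simulated data for this comparison (15065 genes), 28% of 100 genes changed by 1 log2 unit and 91% of 100 changed by 2 were recovered, with 4 false calls. The noise was normal, with the same spread of a gene in all groups, so the shares need not hold for the arrays themselves.

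Named were Sftpd, the 12 strongest genes in each direction (called genes first, then those with the smallest p), up to 2 called members of each of 43 gene lists or otherwise the member with the smallest p, and any member of the surfactant, lipid-laden macrophage and metalloproteinase lists. Alb, Apoa2, Serpina1a, Serpina1d, Fgb, Hpx, Saa1, Saa2, Clca1, Muc5b, Pigr, Ang5, Anxa11, Slc25a37, Dydc2, Ajuba, Adamdec1, Fbp1, Nkg7, Gzma, Lrg1, Lgals3, Mbl1, Foxj1 and S100a8 fall outside that and were chosen after their values were seen. The comparison and the lists were chosen with earlier results of these data known. The alternatives were other filters, probe set rules, covariates, a cyclic loess, a fit of the 11 arrays, a replicate block and each array left out. Samples with the same number were not taken as paired: the correlation of their deviations averaged -0.102 over 5 pairs, and 1 was over 0.1.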

Additional observations from a re-analysis of the deposited data

Results flagged for a closer look

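Single arrays stood apart from the rest of their group for 22 of 172 groups of values examined (12.8%). Of the 22, 8 were high values on C57BL/6 replicate 3. Some genes were chosen after their values were seen, and genes that move together are counted singly, so no chance rate is set beside this share. C57BL/6 replicate 3 was high for liver plasma proteins, as SP-D-/- replicates 3 and 4 were. It had 6.38 for Alb (other C57BL/6 arrays 4.24 to 4.75), 6.84 for Apoa2, 4.91 for Fgg, 4.81 for Kng1, 3.87 for Serpina1a, 4.55 for Serpina1d and 4.07 for Hpx. It was also highest for Slc26a4, at 5.31. C57BL/6 replicate 1 was high for the muscle genes Tnnt3, at 11.23 (others 5.94 to 6.23), and Myl3, at 9.56 (others 6.53 to 7.46).

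SP-D-/- replicate 2 was low for Ctsk, at 5.92 (others 6.43 to 6.58), for Lgals3, at 9.2, and for Tnnt3, at 4.55, and high for the clock gene Npas2, at 8.15, and the adipose gene Retn, at 6.87. SP-D-/- replicate 3 was high for Cyp26b1, at 6.3. C57BL/6 replicate 5 was high for Csf2rb, at 7.52, and Dydc2, at 6.51, and low for Lcn2, at 8.57. C57BL/6 replicate 6 was low for Ifit3, at 7.35, and Msln, at 6.51, and replicate 2 was high for Slc25a37, at 8.94.

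The difference between genotypes itself differed between air and Af 168 h for Fbp1, a gluconeogenic enzyme of liver and other tissues, by 4.55 ± 0.89 (limma, adjusted p = 0.036, the one gene of 15065). In air Fbp1 had 6.53 and 6.95 on SP-D-/- replicates 3 and 4 and 3.43 to 3.79 on the others, against 2.73 to 3.48 in C57BL/6. At Af 168 h it had 2.69 to 3.66 in SP-D-/- and 3.81 to 7.95 in C57BL/6. The 2 air arrays are those with high liver genes, and the part of liver RNA in this difference was not tested.

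Probe sets that the gene-level comparison did not use also passed when all 36800 were tested singly (limma, 16 called, 10 higher). Ppp1r3e, a regulator of glycogen metabolism on chromosome 14, fell by -2.43 ± 0.37 on a probe set other than the one used above, at 3.78 ± 0.2 in SP-D-/- and 6.21 ± 0.2 in C57BL/6 (adjusted p = 4.82e-05). Among 12091 probe sets with no gene name 4 passed, 3 of them lower, by -1.91, -1.36 and -2.62, and 1 higher, by 1.8. Of 497 with several genes 1 passed, lower by -1.62. These are not named here.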

How the results depend on the processing

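The fit of all arrays called 10 genes. The count was 28 with only the 11 arrays, of which 6 were among the 10, and 4 with a replicate block in those 11 arrays. In all 89 arrays the replicate block left the count at 10 and changed no call. With 1 array left out the count ran from 5, without SP-D-/- replicate 3, to 33, without SP-D-/- replicate 2; it was 25 without replicate 5 and 26 without replicate 6, and 7 to 11 without 1 C57BL/6 array. Without SP-D-/- replicates 3 and 4, an alternative chosen after seeing the data, 5 were called, and without the 5 doubted arrays 234 were called after ozone and 161 at Af 168 h with ozone. Sftpd, Ctr9 and Saa3 were called in 26 of 26 alternatives, and Loxl2 and Retnla in 25, not with the replicate block in 11 arrays. Signs reversed without SP-D-/- replicates 3 and 4 for Alb (-0.06), Apoa2 (-0.08), Serpina1a (-0.21), Serpina1d (-0.07) and Fgb (-0.09), and with the spike covariate too for Alb (-0.06), Apoa2 (-0.08), Serpina1a (-0.2), Serpina1d (-0.07) and Fgb (-0.1). Of the other values for named genes, 2115 kept direction and side of the threshold, 55 newly passed and 46 no longer passed; apart from the arrays left out, the cause was not tested. Dim genes near background are the least precise.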
